A study of Mus musculus with 2 samples.

Results

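Interferon-stimulated genes are the transcripts that cells switch on when they sense an interferon, and 42 of them were followed here among the 31053 genes counted in mouse lung cells. The members were chosen by symbol from a fixed list of 42 names. That list was drawn up with earlier results of these data known, among them the level of *Cxcl9* in endothelial cells and a small group of hypoxia cells led by *Ifit1*, so the hypoxia to normoxia ratios given here are descriptions and carry no test. The members were split by role into 19 IFIT/ISG genes, 14 GBP/IRG genes, 7 regulators and 2 chemokines.

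The lungs came from wild-type C57/B6 mice aged 2 to 4 months, kept in normoxia or exposed to hypoxia for 3 weeks. Lungs were flushed and digested, and CD45+ leukocytes and CD326+ epithelial cells were depleted with magnetic beads before capture, so both libraries hold what that depletion left. Each condition has 1 library made with the 10x Chromium 3′ chemistry, in which each transcript molecule carries a unique molecular identifier (UMI). The study's methods name male mice and several animals for the hypoxia exposure, and whether their cells were pooled was not stated.

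Interferons reach the nucleus by more than one route. Type I interferons signal through Ifnar1 and Ifnar2 to a complex that holds Stat2 and Irf9 and binds the interferon-stimulated response element (ISRE) and drives IFIT and ISG genes that block viral translation and replication. Interferon gamma signals through Ifngr1 and Ifngr2 to the gamma-activated site (GAS) and, with Irf1, drives guanylate-binding proteins (GBP) and immunity-related GTPases (IRG) that coat and break the vacuoles of intracellular pathogens. Many members answer to both routes, so membership of a group does not name the interferon.

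The normoxia library held 2223 cells and 7630683 UMIs and the hypoxia library 809 cells and 2685345 UMIs, of which 1348 and 689 cells passed the limits on genes and mitochondrial UMIs. One cell barcode was shared. Median depth was 3453 UMIs per kept normoxia cell and 2224 per kept hypoxia cell. The 25 clusters, made without the members, included 15 with the markers of endothelial cells (EC-like, 880 normoxia and 591 hypoxia cells) and others named fibroblast-like (190 and 36), pericyte-like (40 and 3), SMC-like (16 and 0), AT1-like (50 and 11), AT2-like (7 and 8) and platelet-like (18 and 5). Summed EC markers were level between the libraries, at 12376 and 12514 UMIs per 1000000 UMIs of the class (CPM), with a hypoxia to normoxia ratio of 1.01. Leukocyte markers (*Ptprc*, *Coro1a*, *Laptm5*, *Cd52*) gave 12 and 11 UMIs in all EC-like cells. The libraries stood apart in dissociation response genes (10 genes such as *Fos*, *Junb* and *Hspa1a*), which summed to 16810 CPM in normoxia and 6293 CPM in hypoxia EC-like cells, a ratio of 0.374. They also stood apart in cluster makeup: a cluster led by *Ntrk2*, *Cdk19* and *Mal* held 191 hypoxia and 6 normoxia cells, and such a cluster may be that library, not a cell type. Its 10 leading genes also included the MHC class II pathway genes *Cd74*, *H2-Ab1*, *H2-Eb1*, *H2-Aa* and *H2-DMa*, which clustering did not leave out. Values outside that cluster thus omit cells marked by those genes, whose relation to the members was not tested. Since neither condition was captured more than once, no difference here has a replicate check, and every interval given is a 95% interval for counting error only.

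Of the 42 members, 32 had a promoter window in RefSeq (250 bases before to 50 after the start, GRCm38.p6). An ISRE core, searched on both strands as GAAANNGAAA, stood in 20 of the 32 (62.5%) against 3.99% of the 27025 genes with a window. A GAS core, TTCNNNGAA, stood in 12 (37.5%) against 9.55%. Both were present in 8 members (25%) against 0.614% of all genes. Among GBP/IRG genes 9 of 10 held an ISRE core and 6 of 10 held both, while 8 of 14 IFIT/ISG genes held an ISRE core and 4 a GAS core. With 1 letter of difference allowed, an ISRE core was found in 30 of the 32 and in 38.9% of all genes. A match describes the letters and is not a measured binding site.

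These IFIT/ISG promoters are shown because their genes mark the cells described later as responding. *Ifit1* and *Ifit3* encode translation blockers of the IFIT family, *Isg15* a ubiquitin-like modifier and *Rsad2* the antiviral enzyme viperin. Capitals mark ISRE cores on either strand, merged where they overlap.
Ifit1 (chr19:34640765-34640833, plus strand): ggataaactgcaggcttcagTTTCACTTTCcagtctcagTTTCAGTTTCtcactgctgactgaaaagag
Ifit3 (chr19:34583353-34583436, plus strand): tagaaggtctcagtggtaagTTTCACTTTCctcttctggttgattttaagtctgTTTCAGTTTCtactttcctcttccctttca
Isg15 (chr4:156200855-156200916, minus strand): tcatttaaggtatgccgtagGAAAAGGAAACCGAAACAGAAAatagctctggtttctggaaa
Rsad2 (chr12:26456543-26456592, minus strand): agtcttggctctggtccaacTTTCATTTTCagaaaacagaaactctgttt
The *Ifit1* and *Ifit3* stretches each held 2 separate cores, and *Isg15* held 3 overlapping ones.

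GTPase promoters are shown because these genes were among those with the largest hypoxia to normoxia ratios, and *Gbp2* because a single cell held 88 of its UMIs. *Igtp* (Irgm3) and *Irgm2* are regulatory GTPases and *Tgtp2* (Irgb6) an effector GTPase. Capitals mark a GAS core followed by an ISRE core, and in *Gbp2* an ISRE core alone.
Igtp (chr11:58199491-58199551, plus strand): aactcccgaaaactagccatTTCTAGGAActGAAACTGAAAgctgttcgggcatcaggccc
Irgm2 (chr11:58214882-58214942, plus strand): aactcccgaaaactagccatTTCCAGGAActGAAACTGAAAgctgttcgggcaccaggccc
Tgtp2 (chr11:49064253-49064313, minus strand): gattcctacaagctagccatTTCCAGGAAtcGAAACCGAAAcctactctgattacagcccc
Gbp2 (chr3:142620584-142620633, plus strand): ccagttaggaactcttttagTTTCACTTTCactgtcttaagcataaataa
In *Igtp*, *Irgm2*, *Tgtp1* and *Tgtp2* the GAS core preceded the ISRE core by 2 bases, on the gene's own strand.

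Regulator and chemokine promoters are shown because these members did not share the ratios of the GTPases. *Irf1* is a transcription factor induced by interferons, *Socs1* the feedback inhibitor of Jak kinases, and *Cxcl10* a chemokine for T cells. Capitals mark a GAS core in *Irf1* and ISRE cores in *Socs1* and *Cxcl10*.
Irf1 (chr11:53769904-53769952, plus strand): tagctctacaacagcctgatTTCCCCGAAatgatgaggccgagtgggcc
Socs1 (chr16:10785584-10785639, minus strand): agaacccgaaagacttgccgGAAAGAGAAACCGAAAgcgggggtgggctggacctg
Cxcl10 (chr5:92349073-92349122, minus strand): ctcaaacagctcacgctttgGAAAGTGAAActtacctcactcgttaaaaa

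Many members are neighbours in the genome (GRCm38, GENCODE vM21). The genes *Ifit1*, *Ifit2*, *Ifit3* and *Ifit3b* lie at chr19:34550694-34650009. *Gbp2*, *Gbp3*, *Gbp5* and *Gbp7* lie at chr3:142493978-142638008, and *Gbp4*, *Gbp6* and *Gbp9* at chr5:105077630-105293698. The IRG genes form a group at chr11:48861968-49096974 (*Irgm1*, *Tgtp1*, *Tgtp2*, *Ifi47*) and a pair at chr11:58199556-58222782 (*Igtp*, *Irgm2*). *Cxcl9* and *Cxcl10* share chr5:92321347-92348889. Some copies share the 3′ sequence that this chemistry reads: of the 50-base pieces in the last 500 bases, 100% in *Tgtp2* and 80.8% in *Tgtp1* occurred in another gene, 77.8% in *Gbp6* (with *Gbp10*), 19.4% in *Gbp4*, 14.9% in *Ifit3* (with *Ifit3b*) and 13.97% in *Ifitm3*, so the split of reads between those copies is uncertain.

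In EC-like cells the groups separated. GBP/IRG genes summed to 4310 UMIs (1195 CPM) in normoxia cells and 4140 UMIs (1986 CPM) in hypoxia cells, giving a ratio of 1.66 (1.59 to 1.74). IFIT/ISG genes summed to 20009 and 13510 UMIs, or 5546 and 6481 CPM, a ratio of 1.17 (1.14 to 1.19). The membrane proteins *Ifitm3*, *Ly6e* and *Bst2* made up 16820 of the normoxia UMIs, and without them the IFIT/ISG ratio was 1.06 (1.01 to 1.13). The 15 members taken as inducible markers (*Ifit1*, *Ifit2*, *Ifit3*, *Ifit3b*, *Isg15*, *Rsad2*, *Oasl1*, *Oasl2*, *Usp18*, *Rtp4*, *Ifi44*, *Zbp1*, *Xaf1*, *Irf7* and *Cxcl10*) stood at 567 and 600 CPM, a ratio of 1.06 (0.985 to 1.14). The summed level of the 7 regulators was lower in hypoxia, at 665 and 491 CPM, a ratio of 0.738 (0.685 to 0.794), although the median over single regulators was 1.02 and 4 of 7 ratios lay above 1. *Irf1* gave 1612 of the 2400 normoxia UMIs of the group. The median over all 10477 genes with at least 20 UMIs was 1.01. Dissociation response genes differed by more than any of these groups, at 0.374, and their part in these ratios was not tested.

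By count, 41 members had at least 20 EC-like UMIs and 9 of them were at least 2-fold higher in hypoxia, where 3.02% of all such genes were. These were *Gbp3*, *Gbp4*, *Gbp5*, *Igtp*, *Irgm2*, *Tgtp1*, *Tgtp2*, *Zbp1* and *Cxcl9*. Another 2, *Irf8* and *Socs1*, were at least 2-fold lower, against 5.86% of all genes. GBP/IRG genes made up 7 of the 9 and had 14 of 14 ratios above 1 (*Iigp1* at 1.00) and a median of 1.96, where 51.4% of all genes lay above 1. IFIT/ISG genes had 13 of 18 ratios above 1 and a median of 1.09, and regulators a median of 1.02. At 1.5-fold, 14 members were higher, against 9.56% of all genes, and 3 were lower, against 12.8%.

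**Figure D1:**
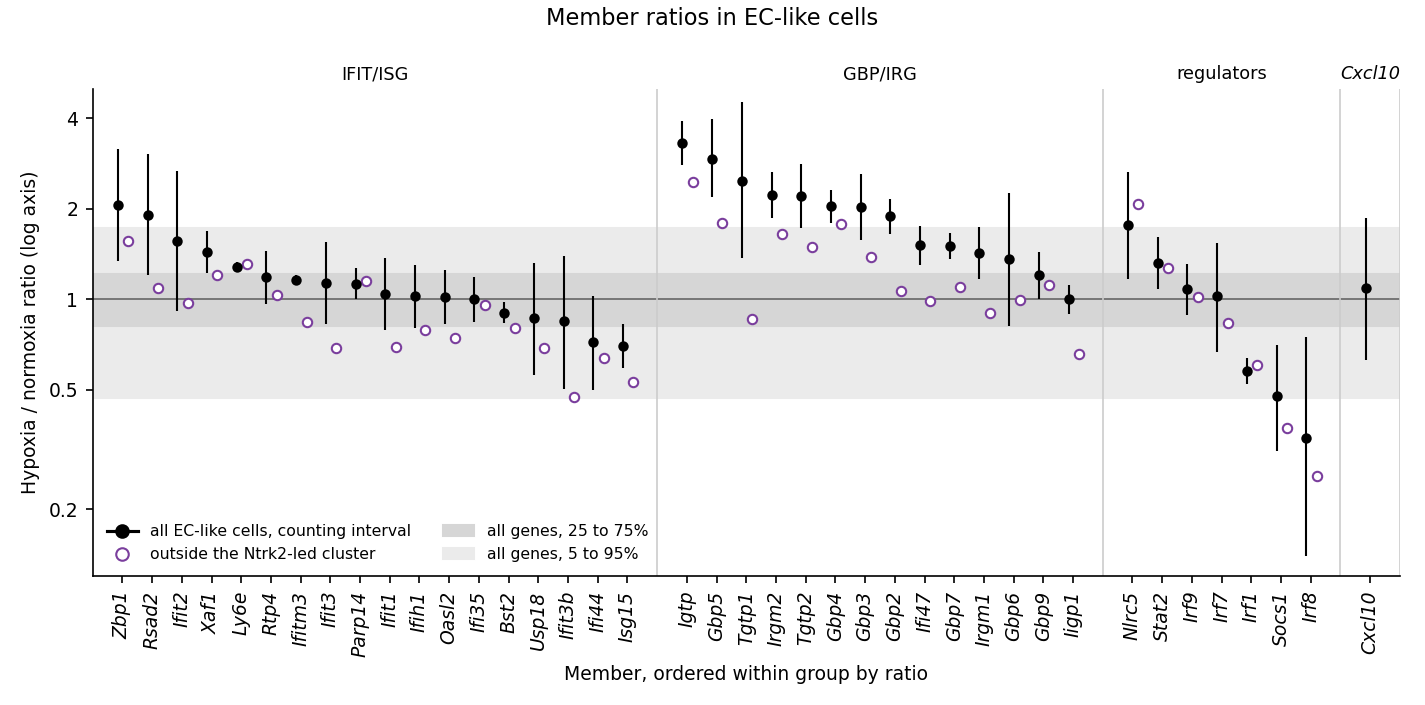
Hypoxia to normoxia ratio of each member with at least 20 UMIs in EC-like cells (log axis), grouped by role, as filled points with 95% counting intervals, with open points for EC-like cells outside the *Ntrk2*-led cluster and bands for the 25 to 75% and 5 to 95% ranges of all genes. *Cxcl9*, at 0 in normoxia, is not drawn. All 14 GBP/IRG genes lie above 1, IFIT/ISG genes straddle a median of 1.09, and *Irf1*, *Irf8* and *Socs1* lie below 1.

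Among GBP genes, *Gbp5*, a guanylate-binding protein that promotes inflammasome assembly, differed most. It gave 73 UMIs (20.2 CPM) in normoxia cells and 124 UMIs (59.5 CPM) in hypoxia cells, giving a ratio of 2.94 (2.18 to 3.98). *Gbp4* stood at 125 and 255 CPM (452 and 532 UMIs), a ratio of 2.04 (1.79 to 2.31). *Gbp3* stood at 32.7 and 66.2 CPM, a ratio of 2.02 (1.57 to 2.61). *Gbp2*, which is recruited to pathogen vacuoles, stood at 117 and 221 CPM (421 and 460 UMIs), a ratio of 1.89 (1.65 to 2.16). A single hypoxia cell, described below, held 88 of the 460 *Gbp2* UMIs and 33 of the 124 *Gbp5* UMIs, and both ratios include it. *Gbp7* stood at 237 and 355 CPM, a ratio of 1.5 (1.36 to 1.66). The remaining GBP genes differed least: *Gbp9* had a ratio of 1.2 (1.01 to 1.43), and the interval of *Gbp6*, with 38 and 30 UMIs, reached both sides of 1 (0.818 to 2.26). Outside the *Ntrk2*-led cluster *Gbp5* had a ratio of 1.80 (1.18 to 2.69) and *Gbp2* one of 1.07 (0.868 to 1.30).

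Among IRG genes, *Igtp* (ENSMUSG00000078853, chr11:58199556-58207591) had the largest ratio. Its 217 UMIs (60.1 CPM) in normoxia cells and 416 UMIs (199.6 CPM) in hypoxia cells gave 3.32 (2.81 to 3.93). Its partner *Irgm2* stood at 62.9 and 140.1 CPM (227 and 292 UMIs), a ratio of 2.23 (1.87 to 2.66). *Tgtp2* stood at 33.3 and 73.4 CPM (120 and 153 UMIs), a ratio of 2.21 (1.73 to 2.83), and its near-identical copy *Tgtp1* had 21 and 30 UMIs. *Ifi47* (Irgd) and *Irgm1*, the autophagy-linked regulator, were nearer to 1, at 1.51 (1.30 to 1.76) and 1.43 (1.16 to 1.74). These directions turned outside the *Ntrk2*-led cluster, where *Ifi47* had 0.984, *Irgm1* 0.898 and *Tgtp1* 0.863, each with an interval across 1. Pooled within clusters that held both libraries, *Ifi47* had 1.17 and *Irgm1* 1.30, and *Tgtp1* had too few UMIs (7 and 5). *Iigp1* (Irga6), an effector GTPase, stood at 239 CPM in both libraries (862 and 499 UMIs), a ratio of 1.00 (0.896 to 1.12), so the IRG genes did not differ by one common factor.

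IFIT/ISG genes lay near 1 with exceptions on both sides. *Ifit1* had 144 and 87 UMIs (39.9 and 41.7 CPM), a ratio of 1.05 (0.792 to 1.37). Its neighbours *Ifit2*, *Ifit3* and *Ifit3b* had ratios of 1.57 (0.915 to 2.68), 1.14 (0.827 to 1.56) and 0.848 (0.504 to 1.39), all with intervals across 1. *Isg15* was lower in hypoxia, at 137 and 95.9 CPM (495 and 200 UMIs), a ratio of 0.699 (0.590 to 0.826). *Zbp1*, a sensor of Z-form nucleic acid that can start necroptosis, had 43 and 51 UMIs (11.9 and 24.5 CPM), a ratio of 2.05 (1.34 to 3.16). *Rsad2* had 38 and 42 UMIs, a ratio of 1.91 (1.2 to 3.05), which turned to 0.828 when pooled within clusters (30 and 8 UMIs) and was 1.09 (0.518 to 2.13) outside the *Ntrk2*-led cluster. *Xaf1*, a pro-apoptotic partner of XIAP, stood at 94.0 and 135 CPM, a ratio of 1.43 (1.22 to 1.69). Outside the *Ntrk2*-led cluster *Ifit1*, *Ifit2*, *Ifit3* and *Ifit3b* had 0.695, 0.970, 0.690 and 0.474. Pooled within clusters they had 1.27, 1.46, 0.831 and 0.692.

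The other IFIT/ISG genes had ratios on both sides of 1. *Ifi35*, *Oasl2* (an oligoadenylate synthetase-like protein) and the RNA sensor *Ifih1* (Mda5) had ratios of 1.00, 1.02 and 1.03. *Usp18*, the protease that removes Isg15 from proteins, had a ratio of 0.865 (0.560 to 1.32) and *Ifi44* one of 0.721 (0.498 to 1.03). *Rtp4* had 1.18 (0.969 to 1.44) and *Parp14*, an ADP-ribosyltransferase, 1.13 (1.00 to 1.27). *Oasl1* was too sparse to compare, with 10 UMIs in normoxia and 1 in hypoxia. The abundant surface genes split: *Ifitm3*, which blocks viral fusion, had 7795 and 5225 UMIs and a ratio of 1.16 (1.12 to 1.2), *Ly6e* 7309 and 5428 UMIs and a ratio of 1.29 (1.24 to 1.33), and *Bst2* (tetherin) a ratio of 0.903 (0.832 to 0.979). Outside the *Ntrk2*-led cluster *Ifitm3* turned to 0.839 (0.797 to 0.882), while *Ly6e* had 1.31 (1.26 to 1.37). Pooled within clusters *Ifitm3* was level, at 1.01, and *Ly6e* had 1.30.

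Single regulators differed in direction, with *Irf1*, *Socs1* and *Irf8* lower in hypoxia and *Stat2* and *Nlrc5* higher. *Irf1* (ENSMUSG00000018899, chr11:53770014-53778374) had 1612 normoxia UMIs (447 CPM) and 539 hypoxia UMIs (259 CPM), a ratio of 0.579 (0.524 to 0.638), but was near level when pooled within clusters, at 0.942. *Socs1* stood at 33.3 and 15.8 CPM (120 and 33 UMIs), a ratio of 0.476 (0.314 to 0.705). *Irf8*, better known from myeloid cells, had 40 and 8 UMIs, a ratio of 0.346 (0.14 to 0.750), and 0.567 within clusters from 17 and 2 UMIs. The parts of the type I complex differed less: *Stat2* had a ratio of 1.32 (1.08 to 1.61), *Irf9* 1.08 (0.885 to 1.31) and *Irf7*, which amplifies type I interferon, 1.02 (0.670 to 1.54). *Nlrc5*, the activator of MHC class I genes, had 50 and 51 UMIs, a ratio of 1.77 (1.17 to 2.66). Pooled within clusters *Nlrc5* had 1.97 (33 and 27 UMIs) and *Stat2* 1.24.

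**Figure D2:**
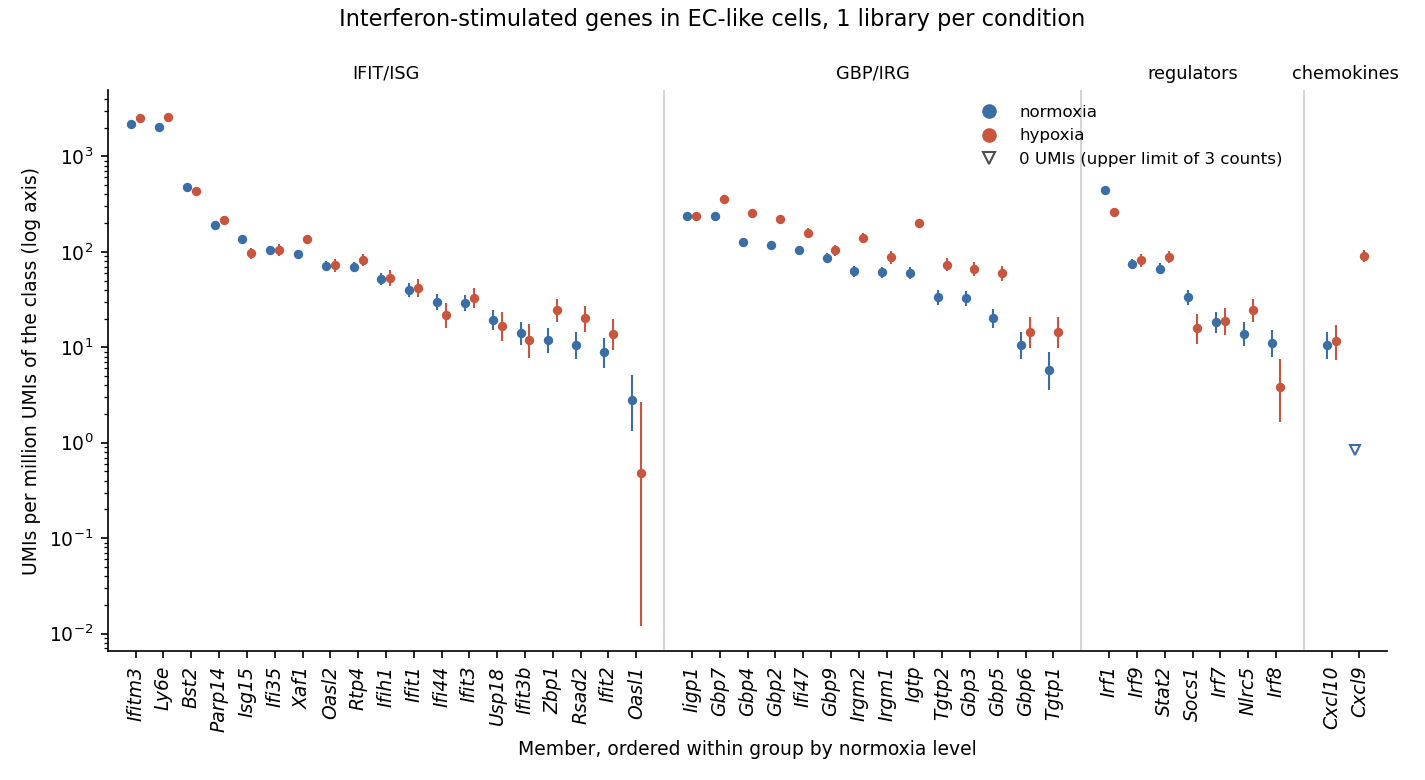
Level of each member in EC-like cells in normoxia and hypoxia (CPM, log axis), with 95% Poisson intervals and an open triangle at the level of 3 counts for *Cxcl9* in normoxia. Most GBP and IRG points sit higher in hypoxia, *Iigp1* coincides at 239 CPM in both, and *Irf1* sits lower in hypoxia, a gap that was near level within clusters (0.942).

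The chemokines came from very few cells. *Cxcl9* (ENSMUSG00000029417, chr5:92321347-92328079), an interferon gamma target that draws T cells, had no UMI in 880 normoxia EC-like cells and 188 UMIs in 3 hypoxia cells, of which 186 were in a single cell. Against the level that 3 counts would give in normoxia, the class level was at least 108-fold higher, and that value was among those that chose the gene. *Cxcl10* had 38 UMIs in 12 normoxia cells and 24 UMIs in 1 hypoxia cell, so its ratio of 1.09 (0.627 to 1.87) compares 12 cells with 1.

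That same hypoxia cell held the most GBP/IRG UMIs of any EC-like cell. It had 8080 UMIs, lay in the *Ntrk2*-led cluster with 0 *Ntrk2* UMIs and passed the venous marker gate. Of its 14 venous-marker UMIs 10 were of *Vcam1*, 1 of *Vwf* and 0 of *Slc6a2*, so the venous label rests mainly on *Vcam1*. The cell held 236 GBP/IRG UMIs, among them 88 of *Gbp2*, 34 of *Iigp1* and 33 of *Gbp5*, and 68 UMIs of inducible members. *Ido1*, the tryptophan-degrading enzyme induced by interferon gamma, gave 13 UMIs there and *Wars*, a tRNA synthetase with the same inducer, 17. The cell had 44 UMIs of EC markers among its 8080, a smaller share than in hypoxia EC-like cells as a whole, and none of leukocyte markers. Mitochondrial genes gave 0.0124% of its UMIs. Without it, 6 members were at least 2-fold higher (2.96% of all genes) and 3 lower (5.84%, *Irf8*, *Socs1* and *Cxcl10*). *Gbp3*, *Gbp4* and *Cxcl9* were then not in the higher group, while *Gbp5* had a ratio of 2.17 and *Igtp* one of 3.23. The summed GBP/IRG ratio without the cell was 1.57 (1.51 to 1.64).

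The *Ntrk2*-led cluster carried much of the hypoxia level. With 32.3% of the hypoxia EC-like cells and 50.2% of their UMIs, it held 330 of the 460 *Gbp2* UMIs of hypoxia EC-like cells, 266 of 416 for *Igtp*, 86 of 124 for *Gbp5* and all 188 and 24 for *Cxcl9* and *Cxcl10*. Of these, the single cell described above held 88 for *Gbp2*, 13 for *Igtp*, 33 for *Gbp5*, 186 for *Cxcl9* and all 24 for *Cxcl10*. With that cell included, the cluster's 191 hypoxia cells stood at 2552 CPM of GBP/IRG genes and 744 CPM of inducible members. Dissociation response genes stood at 4714 CPM there and at 7885 CPM in the other hypoxia EC-like cells. Outside the cluster GBP/IRG genes stood at 1194 CPM in normoxia cells and 1415 CPM in hypoxia cells, giving a ratio of 1.19 (1.12 to 1.26), the IFIT/ISG ratio was 1.02 (0.989 to 1.05) and the inducible ratio 0.795 (0.718 to 0.880). Only *Igtp* (2.46, 1.99 to 3.05) and *Nlrc5* (2.07, 1.27 to 3.32) of 40 members were then at least 2-fold higher, against 3.44% of all genes, and 4 were at least 2-fold lower (*Ifit3b*, *Irf8*, *Socs1* and *Cxcl10*), against 6.61%. GBP/IRG genes had 9 of 14 ratios above 1 there, where 50.4% of all genes lay above 1, and a median of 1.11. *Gbp4* had a ratio of 1.79 (1.52 to 2.10) and *Irgm2* one of 1.65 (1.29 to 2.09), whereas *Gbp2* had 1.07 (0.868 to 1.30) and *Iigp1* 0.660 (0.555 to 0.781). Pooled within clusters *Gbp4* had 1.55, *Irgm2* 1.69, *Gbp2* 1.18 and *Iigp1* 1.04.

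Different clusters held most EC-like cells of the libraries. Normoxia cells lay mainly in clusters led by *Hpgd* and *Plvap* (145 cells), *Socs3* and *Ier3* (131), *Gm16486* (116) and *Mecom* and *Hey1* (102), and hypoxia cells in those led by *Ntrk2* (191), *Gm26870* and *Cenpb* (125) and *Clec9a* (72). Values outside the *Ntrk2*-led cluster still include other clusters of mostly 1 library. One led by *Gm26870*, *H2-DMa* and *H2-Aa* had 3 normoxia and 62 hypoxia cells. Those led by *Gm16486*, *Marcksl1* and *A430090L17Rik* had 116 and 2, 23 and 2, and 46 and 4. In the 8 clusters where both libraries had 10 or more cells (673 and 321 cells in all), the GBP/IRG ratio pooled within clusters was 1.39, and 7 of the 8 clusters were above 1, from 0.616 to 1.82. The pooled IFIT/ISG ratio was 1.14, that of regulators 1.01 and that of dissociation response genes 0.674. GBP/IRG genes with enough UMIs had 13 of 13 pooled ratios above 1, against 51.6% of all genes, and 2 of them, *Igtp* (2.32) and *Tgtp2* (2.13), were at least 2-fold higher, against 3.91%. Of the others, *Socs1* had 0.501 within clusters and *Isg15* 0.838.

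Whether few cells or the class as a whole carried a level was read from how UMIs were spread. For *Ifit1*, 5% of EC-like cells (44 in normoxia, 30 in hypoxia) held 81.3% and 82.8% of its UMIs, and 15 of 71 positive normoxia cells held 50% of them. With 144 and 87 UMIs in all, low counts alone raise such a share, so sums are given beside it. The same 5% held 35.7% and 40.3% of inducible UMIs, 25.2% and 34.3% of GBP/IRG UMIs and 15.3% and 19.1% of IFIT/ISG UMIs. After thinning every cell to 1000 UMIs, which left out 67 normoxia and 115 hypoxia cells, the GBP/IRG shares were 27.6% and 26.3%. The thinned shares were 45.1% and 36.4% for inducible members and 15.2% and 13.1% for IFIT/ISG genes. At equal depth each of these shares was thus higher in normoxia, where without thinning each was higher in hypoxia. Fewer UMIs per cell raise such a share, and thinned normoxia cells held fewer GBP/IRG UMIs each, so these shares do not compare concentration alone. The variance of thinned GBP/IRG UMIs per cell over their mean was 2.38 in normoxia and 3.86 in hypoxia. That measure can rise with the mean, and the means differed, with 1017 UMIs in 813 normoxia and 956 in 476 hypoxia cells. The hypoxia value also includes the single cell with 236 GBP/IRG UMIs, so it does not compare spread alone. The mean number of GBP/IRG genes detected per cell was 1.01 in normoxia and 1.52 in hypoxia.

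**Figure D3:**
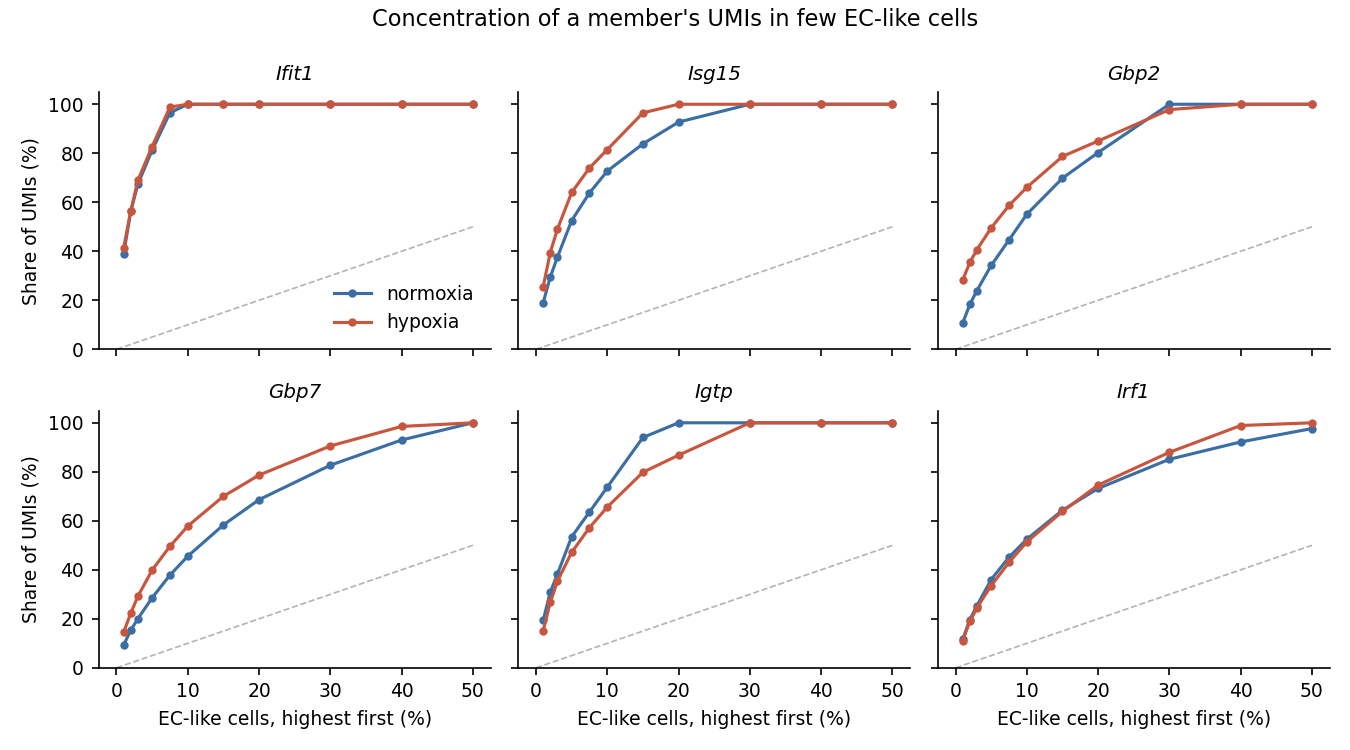
Cumulative share of a gene's UMIs (%) against the share of EC-like cells ranked by UMIs of that gene (%), for *Ifit1*, *Isg15*, *Gbp2*, *Gbp7*, *Igtp* and *Irf1* in each library, with a dashed line for an even spread. Of the 6 genes, *Ifit1* UMIs sit in the fewest cells, with 81.3% and 82.8% of them in the top 5% of cells.

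Thinned cells gave the same contrast by gene. Without thinning, a GBP/IRG UMI was found in 86.0% of normoxia and 80% of hypoxia cells. After it, at least 1 GBP/IRG gene was detected in 59.8% (56.3 to 63.2) of 813 normoxia and 66.2% (61.7 to 70.4) of 476 hypoxia cells. At least 3 were detected in 10.5% (8.44 to 12.8) and 23.9% (20.2 to 28.0), and at least 5 in 1.11% (0.507 to 2.09) and 5.46% (3.60 to 7.90). For inducible members the shares were close: at least 1 in 31.9% and 35.3%, and at least 2 in 8.86% and 10.3%. By member, *Igtp* was found in 5.78% and 13.9% of thinned cells, *Gbp4* in 11.3% and 21.6%, *Tgtp2* in 2.09% and 7.77%, *Iigp1* in 15.9% and 15.3% and *Irf1* in 28.7% and 21.2%. Outside the *Ntrk2*-led cluster at least 3 GBP/IRG genes were detected in 10.4% (8.39 to 12.7) and 19.6% (15.2 to 24.7). As a low reference, AT2-like epithelial cells held 3 and 2 GBP/IRG UMIs in all (52.0 and 35.0 CPM).

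**Figure D4:**
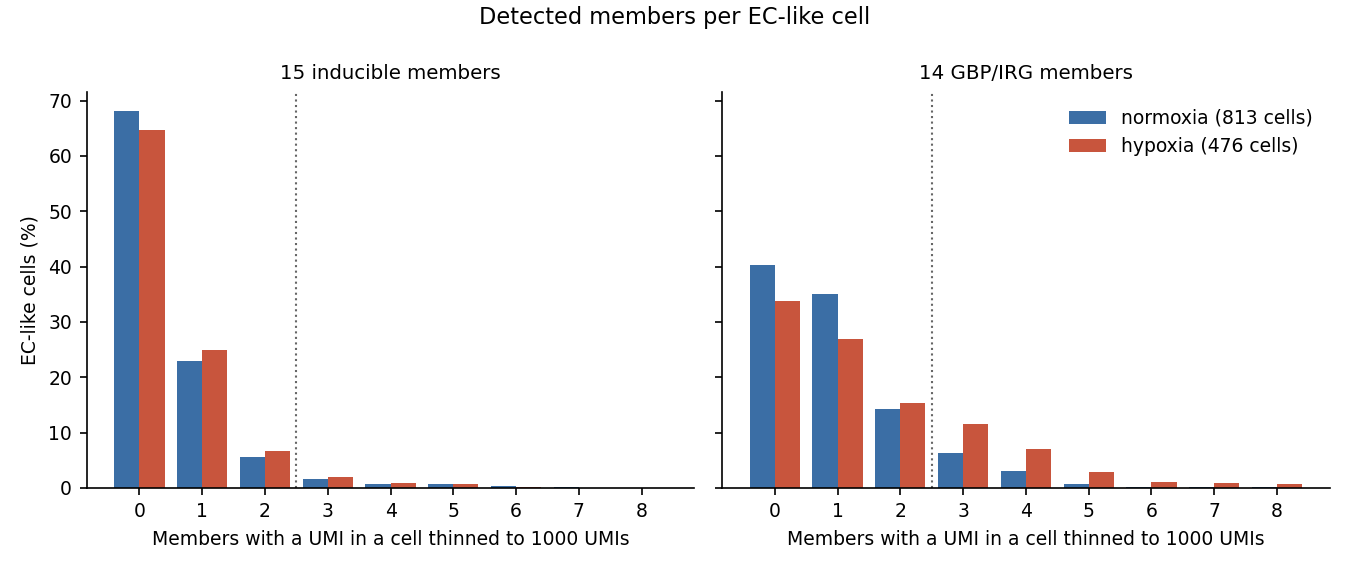
Share of EC-like cells (%) by the number of GBP/IRG genes or inducible members detected after thinning to 1000 UMIs, in 813 normoxia and 476 hypoxia cells, with a dotted line below 3 members. The hypoxia distribution reaches further for GBP/IRG genes, with 23.9% of cells at 3 or more against 10.5%, and lies close to normoxia for inducible members.

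A cell was called responding when at least 3 of the 15 inducible members were detected after thinning. By this call 27 of 813 normoxia cells (3.32%, 2.2 to 4.8) and 17 of 476 hypoxia cells (3.57%, 2.09 to 5.66) were responding. The depth and the limit set that share: it was 9.05% in normoxia and 8.43% in hypoxia after thinning to 2000 UMIs, 18.8% and 16.4% with no thinning, and 1.72% and 1.68% with at least 4 members. In hypoxia 10 of the 17 lay in the *Ntrk2*-led cluster, and outside it the hypoxia share was 2.46% (0.993 to 4.99). General-capillary cells were responding in 12 of 217 (5.53%) in normoxia and 3 of 54 (5.56%) in hypoxia, aerocytes in 1 of 108 and 1 of 53, and arterial cells in 0 of 79 and 0 of 64. Venous cells were responding in 1 of 59 (1.69%) and 2 of 36 (5.56%). The largest number had no subtype, with 13 of 332 (3.92%) and 11 of 265 (4.15%). No fibroblast-like cell was called, 0 of 139 in normoxia, which allows a share of up to 2.16%, and 0 of 25 in hypoxia, which allows up to 12.0%. Responding cells were not confined to EC-like cells: in normoxia 1 of 29 AT1-like cells and 1 of 30 cells of an unnamed shallow cluster were called.

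Genes that the call did not use were also higher in responding cells. GBP/IRG genes stood at 5036 CPM in the 44 responding cells and 1370 CPM in the 1245 others, a ratio of 3.68 (3.42 to 3.94), and the ratio was 3.37 within normoxia and 3.61 within hypoxia. The single cell with 236 GBP/IRG UMIs is among them, and without it the ratio was 2.83 (2.61 to 3.06) in all and 2.20 (1.95 to 2.49) within hypoxia. *Gbp5* had the ratio 10.9 (7.75 to 15.1) with that cell and 4.03 (2.32 to 6.60) without it, and *Gbp2* 5.29 and 1.70 (1.20 to 2.35). Within hypoxia alone *Gbp2* then had 0.856 (0.423 to 1.55). *Iigp1* had 3.64, *Ifi47* 3.38 and *Igtp* 2.74 without it. Likewise without it, the transducer *Stat2* had 3.29, whereas *Irf1* had 1.34 and *Ly6e* 1.36. *Ido1* had 14 UMIs in responding cells, 13 of them in that cell. Median depth was 3580.5 UMIs in responding cells and 3877 in the others. At least 3 GBP/IRG genes were found in 12 of 27 responding normoxia cells (44.4%) and 13 of 17 responding hypoxia cells (76.5%), against 9.29% and 22.0% of the others. The responding cells held 10.7% of GBP/IRG UMIs (8.12% without that cell). Their share of inducible UMIs was 24.5% (22.8% without it), which the call itself raises because it uses those members. Of cells with at least 3 GBP/IRG genes, 14.1% in normoxia and 11.4% in hypoxia were responding. Without the responding cells the hypoxia to normoxia ratio of GBP/IRG genes was 1.62 (1.55 to 1.70).

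GBP/IRG genes also differed between EC subtypes within a library. Cells were gated per cell on marker lists for aerocytes (the gas-exchange capillary cells, *Car4*, *Ednrb*), general capillary cells (*Gpihbp1*, *Aplnr*), arterial, venous and lymphatic cells, with 113 cells near the limit of the gate and 376 normoxia and 357 hypoxia cells left without a subtype. Of the blood types GBP/IRG genes were lowest in aerocytes, at 384 CPM in normoxia and 526 CPM in hypoxia, against 1559 and 2042 CPM in general capillary cells. The general-capillary level was 4.06 times the aerocyte level in normoxia (3.55 to 4.65) and 3.88 times in hypoxia (3.27 to 4.62). Arterial cells stood at 3.01 and 3.84 times and venous cells at 3.85 and 6.16 times the aerocyte level. The venous hypoxia value was 3.24 (2.66 to 3.95) without the single cell with 236 GBP/IRG UMIs, which held 14 UMIs of venous and 14 of general-capillary markers. Aerocytes were the deeper cells, at a median of 6104.5 UMIs in normoxia against 3727 for general capillary cells.

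*Iigp1* separated the capillary types most sharply. It had 312 UMIs (367 CPM) in general capillary cells and 6 UMIs (8.67 CPM) in aerocytes in normoxia, a ratio of 42.4 (19.3 to 116), and 62 and 3 UMIs in hypoxia, a ratio of 31.0 (10.1 to 154). *Ifitm3* was higher in general capillary cells in both libraries, by 7.69 times (6.73 to 8.81) and 4.98 times (4.24 to 5.87). *Gbp7* differed by 2.89 times (2.19 to 3.86) and 6.30 times (4.04 to 10.2), and *Gbp2* by 5.08 and 4.67 times. *Ly6e* went the other way, at 0.690 (0.647 to 0.736) in normoxia and 0.787 (0.715 to 0.866) in hypoxia, as did *Ifi35* at 0.602 (0.430 to 0.839) and 0.720 (0.423 to 1.19). With at least 20 UMIs over both types, 28 of 32 members were higher in general capillary cells in normoxia and 20 of 23 in hypoxia, against 51.1% and 50.6% of all genes.

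Within subtypes the hypoxia to normoxia ratio of GBP/IRG genes was above 1 in each gated blood type. The gates took in cells of the *Ntrk2*-led cluster, and no subtype ratio was taken without that cluster. Cells without a subtype had at least 3 GBP/IRG genes in 10.5% of thinned normoxia and 28.7% of thinned hypoxia cells. The ratio in the gated types varied. This ratio was 1.37 (1.13 to 1.66) in aerocytes, 1.31 (1.18 to 1.45) in general capillary cells, 1.75 (1.54 to 1.99) in arterial cells and 2.19 (1.93 to 2.5) in venous cells. The venous value rested on the single cell described earlier and was 1.15 (0.984 to 1.35) without it. Lymphatic cells had 65 and 6 UMIs (967 and 483 CPM), too few to compare. *Igtp* had a ratio above 1 in all 4 gated blood types, from 1.91 (1.14 to 3.20) in venous to 5.26 (3.01 to 9.76) in arterial cells. The venous value includes the single cell, which held 13 *Igtp* UMIs, and is not given without it. *Gbp4* stood at 50.6 and 47.8 CPM in aerocytes but at 113 and 242 CPM in arterial cells. *Iigp1* had 0.712 (0.533 to 0.937) in general capillary and 1.49 (1.06 to 2.08) in arterial cells. The inducible sum was lower in hypoxia in general capillary cells, 801 and 641 CPM, a ratio of 0.801 (0.667 to 0.956), where *Isg15* had 151 and 17 UMIs, a ratio of 0.403 (0.229 to 0.667). Differences in ratio between subtypes were not tested.

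**Figure D5:**
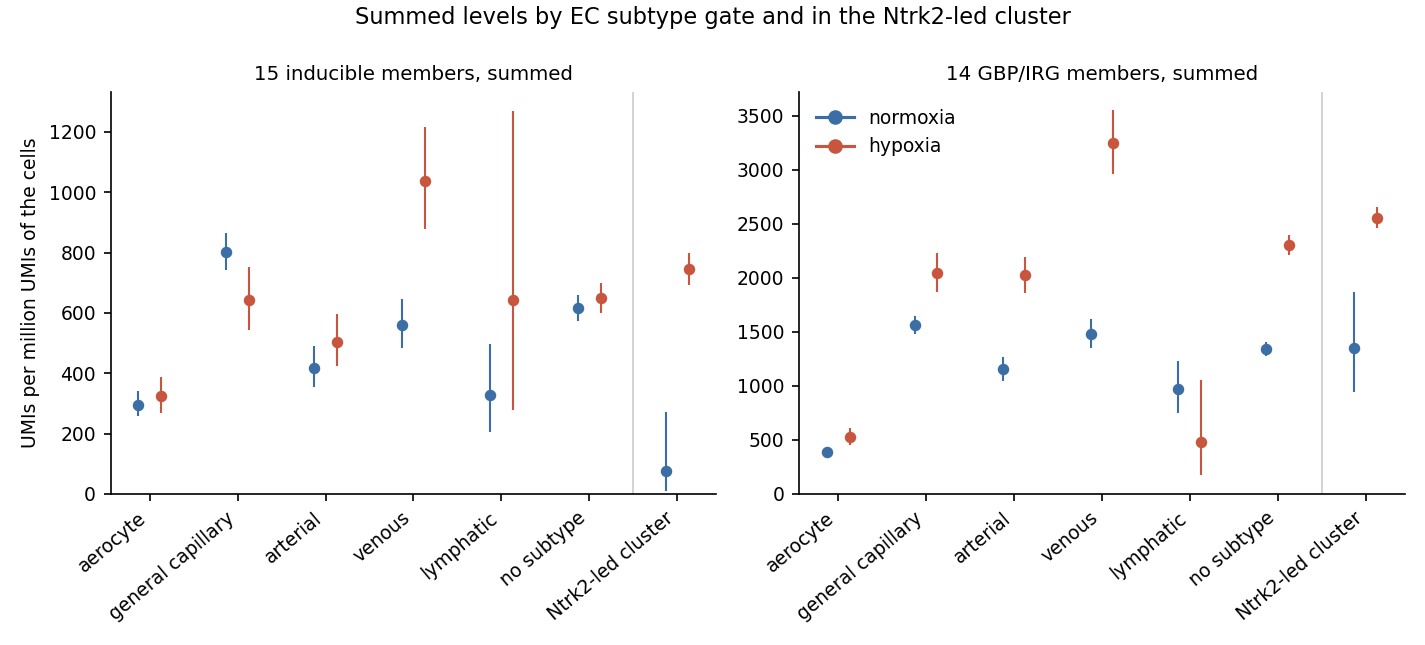
Summed CPM of GBP/IRG genes and of inducible members by EC subtype gate and in the *Ntrk2*-led cluster, per library, with 95% Poisson intervals. Aerocytes hold the lowest GBP/IRG level of the blood types, at 384 and 526 CPM, and the venous hypoxia point includes the single cell with 236 GBP/IRG UMIs.

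Outside endothelium the hypoxia cells were few. In both summed groups the fibroblast-like class stood below EC-like cells as a whole. Its GBP/IRG level in hypoxia was not below that of hypoxia aerocytes (526 CPM). Fibroblast-like cells stood at 295 and 611 CPM of GBP/IRG genes (243 and 52 UMIs), a ratio of 2.08 (1.51 to 2.81), and at 2143 and 3162 CPM of IFIT/ISG genes, a ratio of 1.48 (1.29 to 1.68) that was 1.11 (0.942 to 1.30) with cells of up to 10% mitochondrial UMIs. The class lay in different clusters: 32 of 36 hypoxia cells were in a shallow cluster led by *Mfap4* (median 1027.5 UMIs), against 94 of 190 normoxia cells, and another 82 normoxia cells were in a deep cluster led by *Pdgfra* (median 6899 UMIs). EC markers in the same cells stood at 410 and 2104 CPM, a ratio of 5.14 (4.26 to 6.17), and their part in the member ratios was not tested. Of 21 members with at least 20 UMIs there, 5 were at least 2-fold higher (*Igtp*, *Irgm2*, *Ly6e*, *Xaf1* and *Ifih1*), against 8.54% of all genes, and 4 at least 2-fold lower, against 25.8%. *Ifitm3* was the main fibroblast member, with 1211 and 154 UMIs and a ratio of 1.23 (1.04 to 1.46), while *Ly6e* had 151 and 57 UMIs and a ratio of 3.66 (2.65 to 5.00). *Iigp1* had 88 and 18 UMIs, a ratio of 1.98 (1.12 to 3.32). AT1-like cells held 99 and 6 GBP/IRG UMIs, pericyte-like cells 97 and 6 and SMC-like cells 20 in normoxia alone, which at this depth does not allow a comparison.

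Other genes of the pathway, taken from a fixed list of which 69 were among the genes counted, showed where the route itself stood in EC-like cells. Listed symbols that were not among the genes counted have no value here. The ligands *Ifnb1*, *Ifng*, *Ifnl2* and *Ifnl3* and the lambda receptor *Ifnlr1* had no UMI in either library, which allows up to 0.832 CPM in normoxia and 1.44 CPM in hypoxia. Over all genes 3.02% were at least 2-fold higher and 5.86% lower. Of 5 receptors with at least 20 UMIs 1 was at least 2-fold higher: *Ifngr1*, the ligand-binding chain for interferon gamma, had 859 and 1048 UMIs (238 and 503 CPM), a ratio of 2.11 (1.93 to 2.31), which was 1.33 (1.17 to 1.51) outside the *Ntrk2*-led cluster. *Ifngr2* had 0.892 (0.728 to 1.09), *Ifnar1* 1.03 and *Ifnar2* 0.877. None of 7 kinases and transducers and none of 7 sensors passed 2-fold in either direction. Of 28 other induced genes 3 were at least 2-fold higher (*Oas2* 2.40, *Gbp8* 2.65 and *Ido1* 3.23) and 1 lower (*Ifitm1* 0.269). *Ido1* had 15 and 28 UMIs, 13 of the 28 in the single cell, and 1.74 (0.792 to 3.81) without it. Of 4 negative regulators 1 was at least 2-fold lower: *Socs3* had 3634 and 583 UMIs, a ratio of 0.278 (0.254 to 0.303).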

How the data were processed

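UMI counts per gene and cell were deposited by the authors without normalization, made with Cell Ranger (6.1.2 in the matrix header) against mm10, with Seurat also named in the submitters' processing notes. No deposited column was left unused. The 42 members and all lists were chosen with earlier results of these data known. Cells were kept when they had between 200 and 4000 genes and no more than 5% of UMIs from mitochondrial genes. That upper limit was the sole step against doublets. Clustering used Scanpy 1.11.5, igraph 0.11.9 and anndata 0.12.19, with Leiden resolution 2, 30 components and 15 neighbours. Of 2000 variable genes chosen over both libraries, 1972 remained after leaving out the members and the other listed interferon genes. *Epas1* and *Hif1a* were also barred from that set. MHC class II genes were not left out. Classes were named from marker lists when at least 3 markers were detected, so a class need not match the paper's cluster of that name, and a shallow cluster of 128 and 32 cells and a leukocyte cluster of 19 and 3 stayed unnamed. EC subtypes were gated on the standardised mean of each marker list, with a limit of 0.5 and a margin of 0.5 over the next list.

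Each level is the sum of UMIs scaled to 1000000 UMIs of that class. Intervals at 95% are exact Poisson for levels, conditional binomial for ratios and Clopper-Pearson for shares. Where a count was 0, the upper limit is what 3 counts would give. There is no p-value, since a condition is a single library. Named genes are all 42 members in EC-like cells, members with at least 20 UMIs elsewhere and the listed pathway genes. Ratios within clusters were pooled as Mantel-Haenszel rate ratios over clusters. Python 3.11.15, numpy 2.4.6, pandas 2.3.3, SciPy 1.17.1 and matplotlib 3.10.9 were used, and the ratio code was tested on simulated data. Promoters are from RefSeq and positions from GENCODE vM21.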

Additional observations from a re-analysis of the deposited data

Results flagged for a closer look

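*Bst2* (tetherin) differed in direction between classes: its hypoxia to normoxia ratio was 1.94 in fibroblast-like cells (90 and 18 UMIs) and 0.903 in EC-like cells. The difference between the classes was not tested, and the fibroblast-like hypoxia cells also carried more EC marker UMIs.

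Cells above the mitochondrial limit but within the limits on genes, 813 in normoxia and 107 in hypoxia, were outside every comparison but the alternative at 10% mitochondrial UMIs, which took in some of them. In them the hypoxia to normoxia ratio was 1.62 for IFIT/ISG genes and 2.03 for GBP/IRG genes, which stood at 653 and 1326 CPM. Leukocyte markers there stood at 169 and 18.9 CPM, and their part in these ratios was not tested.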

How the results depend on the processing

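No paired analysis was possible because neither condition has more than 1 library. Alternatives covered the limits on cells, the clustering, the scaling, the thinning and the members, and those that leave out the *Ntrk2*-led cluster, 1 cell or the abundant surface genes, or pool within clusters, were chosen after seeing the data. Of 81 values that answer a comparison, 53 were labelled the same, 28 moved and 0 reversed, and the cause was not tested. A ratio or share was labelled the same inside the counting interval of its main value, and a count within 1.5-fold of it. Where that interval was wide, as in fibroblast-like cells, larger shifts kept the label. Only a ratio could be labelled reversed, and only where its main interval lay clear of 1. Counts and the responding share, scored for each library alone, could not be. The EC-like IFIT/ISG ratio (1.17) was 1.12 as a mean over cells, 1.06 without *Ifitm3*, *Ly6e* and *Bst2*, 1.02 without the *Ntrk2*-led cluster and 1.14 within clusters. The GBP/IRG ratio (1.66) was 1.5 as a mean over cells, 1.19 without that cluster, 1.39 within clusters and 1.57 without the top cell. Without that cell the GBP/IRG ratio of responding to other cells was 2.83 (3.68 with it) and 2.20 in hypoxia (3.61), and that of venous to aerocyte cells in hypoxia 3.24 (6.16). In fibroblast-like cells the IFIT/ISG ratio (1.48) was 1.21 with cells taken by markers, 1.25 at 6000 genes, 1.11 at 10% mitochondrial UMIs, 1.14 at resolution 3 and 2.00 without *Ifitm3*, and the GBP/IRG ratio (2.08) was 4.42 as a mean over cells. The responding share (3.57% in hypoxia, 3.32% in normoxia) was 1.02% and 1.36% at 500 UMIs, 8.43% and 9.05% at 2000 UMIs, 16.4% and 18.8% with no thinning, 10.3% and 8.86% at 2 members and 1.68% and 1.72% at 4 members. Which library had the higher responding share thus changed with the setting. At 1.5-fold, 14 members were higher (9.56% of all genes) and 3 lower (12.8%). Among single members whose main interval lay clear of 1, *Ifi47* (0.984), *Irgm1* (0.898), *Tgtp1* (0.863) and *Ifitm3* (0.839) changed direction without the *Ntrk2*-led cluster. *Rsad2* (0.828) did so within clusters, where *Ifi47* (1.17), *Irgm1* (1.30) and *Ifitm3* (1.01) did not. Members with a main interval across 1, such as *Ifit1*, also crossed 1 without that cluster. Ratios above 1 then fell from 14 to 9 of 14 GBP/IRG genes and from 13 to 6 of 18 IFIT/ISG genes. Depth limits members under 20 UMIs and all hypoxia classes but the EC-like.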
